A study of Homo sapiens with 4 samples.

Results

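HMGA2 and HMGA1 are the genes of the high-mobility group A family, and their poly(A) regions were taken from a table of 3' end reads by position: regions on the plus strand of chromosome 12 for HMGA2 and of chromosome 6 for HMGA1 that lay inside a window around each gene on hg19. The windows held 11 of the 31081 poly(A) regions in the table, 9 for HMGA2 and 2 for HMGA1. Both genes were selected on measured values of these libraries. The most 3' HMGA2 region had stood out by its low share, beside a much stronger end close by. This share was 5.04% ± 0.876 of the reads of the 3 strongest regions at the 3' end of the gene (SD, n = 4). Levels and shares are therefore given as a description. All 4 libraries belong to a single group. They came from DICER(ex5) cells, a DICER hypomorph derived from HCT116, a human colon cancer line, and no parental HCT116 library was analysed here. Whether the line is a single clone is not stated. A read of poly(A) site sequencing marks where a transcript was cut and tailed, and counts were scaled to the library total as CPM. A transcript gives a read at its end whatever its length, so levels of both genes were set side by side without length scaling.

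HMGA proteins are small chromatin proteins whose AT-hooks bind the minor groove of AT-rich DNA and help shape it for transcription factors. Both genes are active in the embryo, mostly low in adult tissue and often high in tumours. HMGA2 is a textbook target of the let-7 microRNAs, which bind repeated sites in the 3' end of its mRNA, and an mRNA cut upstream of such sites lacks them. Dicer cuts the let-7 precursors, which is why HMGA2 is of interest in a Dicer hypomorph. MicroRNAs were not measured here, and no genome of the files' build was used, so let-7 sites were not placed against the poly(A) regions.

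The shared let-7 seed is shown because it is the part by which these microRNAs recognise HMGA2. In the RefSeq microRNA table (GRCh38.p14), 11 mature names carried the seed at bases 2 to 8, in capitals below, and 4 of them are printed 5' to 3'.
hsa-let-7a-5p: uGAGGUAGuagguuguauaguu
hsa-let-7g-5p: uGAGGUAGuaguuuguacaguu
hsa-let-7i-5p: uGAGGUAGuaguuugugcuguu
hsa-miR-98-5p: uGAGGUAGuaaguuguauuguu
Outside the seed the family varies: position by position, let-7g-5p and miR-98-5p matched let-7a-5p at 20 of 22 bases and let-7i-5p at 18.

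The libraries held 5211279, 2163977, 5713530 and 3984278 reads in order of their number. Libraries 1 and 2 resembled each other, as did libraries 3 and 4. Over all regions, the Pearson correlation of log2(CPM + 1) was 0.97 and 0.98 in these pairs and 0.84 to 0.88 in any other pair, a description over regions that share libraries and depth. The labels give no batch, and repeat preparations of a culture cannot be told apart from separate cultures. The SD over 4 libraries therefore measures spread between these libraries, which may be technical. Values are given by library for that reason. Neither the DICER1 gene nor markers of colon epithelium were examined, since regions carry no gene names and could not be matched to genes of that build.

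HMGA2 transcripts ended mostly at a single place at the 3' end of the gene. The strongest region, from 66359988 to 66360014 on the plus strand of chromosome 12, had 1332, 639, 1105 and 831 reads in libraries 1 to 4. It was the highest HMGA2 region in every library. These reads were 82.4%, 82.7%, 74.7% and 78.5% of all HMGA2 reads, a mean of 79.6% ± 3.77 (SD, n = 4). The last region of the gene, from 66360061 to 66360089, ended 75 bases further on and had 73, 32, 81 and 39 reads. Its share of HMGA2 reads was 4.45% ± 0.762 (SD, n = 4). When 3' ends within 100 bases were merged, these became a single terminal region, the 9 regions became 8, and no other HMGA2 regions joined. The terminal region then took 86.9%, 86.8%, 80.2% and 82.2% of HMGA2 reads in libraries 1 to 4, or 84.0% ± 3.39 (SD, n = 4). Counts of reads without known removal of PCR duplicates are not independent molecules, so all intervals here cover counting error only.

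**Figure D1:**
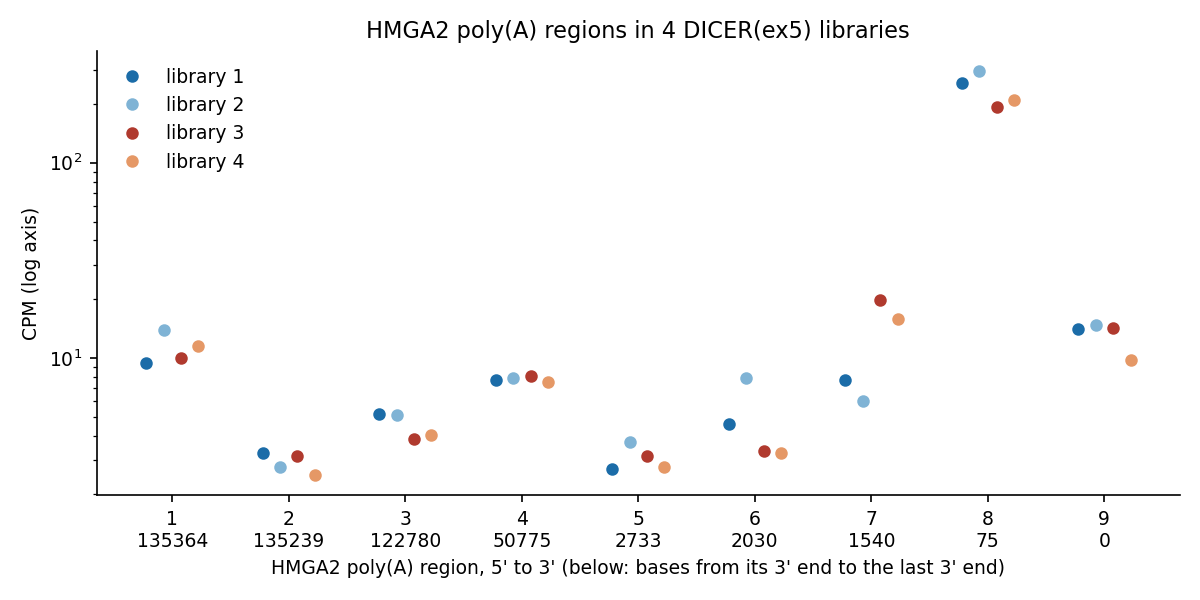
Level of each of the 9 HMGA2 poly(A) regions in CPM (log axis), ordered 5' to 3', with the distance from the last 3' end in bases below each number, and a point for each of the 4 libraries. Region 8 stands far above the others in every library, and region 7 is higher in libraries 3 and 4 (19.8 and 15.8 CPM) than in libraries 1 and 2 (7.68 and 6.01 CPM).

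Ahead of the terminal pair lay 3 tandem regions, with 3' ends 2733, 2030 and 1540 bases before the last one. The nearest of them, from 66358525 to 66358549, had 40, 13, 113 and 63 reads. Its level was 7.68 and 6.01 CPM in libraries 1 and 2 and 19.8 and 15.8 CPM in libraries 3 and 4. The values of libraries 3 and 4 were above those of libraries 1 and 2 without overlap, an order found at 32.8% of the 15359 regions with at least 100 reads. Its share of HMGA2 reads was 2.48% (95% Wilson interval 1.82% to 3.35%) in library 1 and 1.68% (0.985% to 2.86%) in library 2. In libraries 3 and 4 it was 7.64% (6.39% to 9.11%) and 5.95% (4.68% to 7.54%). Intervals of libraries 1 and 2 overlapped each other, those of libraries 3 and 4 did as well, and neither of the first overlapped either of the latter. As a share of its locus (regions of a strand within 5 kb of each other), 4.74% of 18811 regions stood apart in this way and direction, this one among them. The strongest region went the other way, with 256 and 295 CPM in libraries 1 and 2 and 193 and 209 CPM in libraries 3 and 4.

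The other tandem regions did not share the order of the region at 66358525. The region from 66358045 to 66358059 had 24, 17, 19 and 13 reads, which is 4.61, 7.86, 3.33 and 3.26 CPM. Libraries 1 and 2 were thus above libraries 3 and 4, the opposite order. Such an order was seen at 34.7% of regions with at least 100 reads, a minimum that its 73 reads do not reach. The region from 66357321 to 66357356 had 14, 8, 18 and 11 reads, and its CPM ranged from 2.69 to 3.70 with the libraries intermixed. Among the reads of the 3 tandem regions, the one at 66358525 held 51.3%, 34.2%, 75.3% and 72.4% in libraries 1 to 4. The region at 66358045 is part of this total, so its opposite order adds to the difference in this share.

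Whether HMGA2 end usage differed between libraries was tested across the whole table. Regions of a strand within 5 kb of each other were joined into loci, and a region counted with at least 10 reads and 5% of the reads of its locus. At the 3' end of HMGA2, 3 regions counted: the terminal pair and the region at 66358525. The last one and the tandem region were just inside the minimum, with 5.02% and 5.11% of the locus. The next, at 66358045, was outside with 1.63%. By library, the region at 66358525 held 2.70% and 1.83% of the locus in libraries 1 and 2. In libraries 3 and 4 it held 8.46% and 6.58%, so it reached the minimum only through these. Fisher's exact test (two-sided) compared the share of the most 3' region between each pair of libraries. Each library was thinned by a random draw to the 2163977 reads of library 2, and p-values were adjusted by Benjamini-Hochberg over all loci with several regions and 100 reads. Such a test compares libraries, not conditions, and treats reads as independent.

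As deposited, the most 3' HMGA2 region took 5.05%, 4.68%, 6.24% and 4.18% of the reads of the counted regions in libraries 1 to 4. None of the 6 pairs of libraries passed the threshold for this share (adjusted p 0.25 to 1 by Fisher's exact test on thinned counts). The 2 most 5' HMGA2 regions formed another locus, and no pair of libraries was called there either (lowest adjusted p 0.68, Fisher's exact test). In simulated data most changed loci were not called, so a pair without a call may still differ. Over all 5070 loci, 9.86% were called for library 1 against 3, 8.54% for 1 against 4, 15.7% for 2 against 3 and 14.1% for 2 against 4. For 1 against 2 it was 0.217%, and for 3 against 4 it was 0.0789%.

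The calls changed with the way regions were joined or merged. With regions joined within 1 kb, the 3 tandem regions formed a locus of their own, with the region at 66358525 as its distal end. Testing this locus was chosen after seeing the data. It uses the same reads as the shares given above, so its p-values are a description and no second result. On thinned counts that region held 32.0% of this locus in library 1, 34.2% in library 2, 76.8% in library 3 and 76.6% in library 4. All 4 pairs across the resembling libraries were called (adjusted p = 0.0039 for 1 against 3, 0.0073 for 1 against 4, 0.00077 for 2 against 3 and 0.0022 for 2 against 4, Fisher's exact test). Neither resembling pair was (adjusted p = 1 for both, with 0.248% and 0.0744% of loci called). Of the 4030 loci tested in this way, 8.34%, 7.77%, 14.5% and 13.6% were called in the 4 pairs in that order, and 4.52%, 4.07%, 7.77% and 7.30% in the direction of HMGA2. The draw left 25 reads of this locus in library 1, and with all 78 of them the region held 51.3%, against 75.3% in library 3. The gap between these libraries was thus over 1.5 times as wide on thinned counts. It passed either way (adjusted p = 0.0028 by the exact test with all reads). For library 1 against 4 the adjusted p was 0.038 by the exact test with all reads. The share of loci called with all reads at this distance is not given. The terminal pair and the 2 most 5' regions were loci of their own too. On thinned counts no pair of libraries was called at either (lowest adjusted p 0.17 and 0.70, Fisher's exact test).

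Ends within 100 bases were also merged. The merged terminal region took 97.2% and 98.1% of the reads of the counted regions in libraries 1 and 2. In library 3 it took 91.3% and in library 4 it took 93.2%, the remainder being the region at 66358525. The merged share is therefore the complement of the share of that region, and no second result. The region at 66358525 reached the 5% minimum only through libraries 3 and 4, which are here set against libraries 1 and 2. The p-values that follow are therefore a description too, as HMGA2 was also selected on a share of these same libraries. On thinned counts the share was lower in library 3 than in library 1 (adjusted p = 0.00087, Fisher's exact test) and than in library 2 (adjusted p = 3.2e-07). It was also lower in library 4 than in library 2 (adjusted p = 0.00034). Library 4 against library 1 missed the threshold of 0.05 at an adjusted p of 0.055 on thinned counts and passed it with all reads (adjusted p = 0.000102 by the same exact test, where 7.82% of loci were called in that direction). No difference was called within the resembling pairs (adjusted p = 0.857 for 1 against 2 and 1 for 3 against 4, with 0.319% and 0.0425% of loci called). Of all 4706 loci tested in this way, 10.5% were called for 1 against 3, 16.3% for 2 against 3, 14.8% for 2 against 4 and 9.37% for 1 against 4. In the direction of HMGA2, a higher distal share in libraries 1 or 2, the calls were 4.55%, 6.86%, 6.18% and 3.99% of loci. The difference at HMGA2 was thus of a kind found at many loci when these libraries are compared. Its size was 3.98 to 6.80 percentage points with all reads.

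The remaining 4 HMGA2 regions lay far upstream. Their 3' ends were 135364, 135239, 122780 and 50775 bases before the last one, at 66224696 to 66224725, 66224817 to 66224850, 66237300 to 66237309 and 66309297 to 66309314. Together they had 133, 64, 143 and 102 reads, or 8.23%, 8.28%, 9.67% and 9.63% of HMGA2 reads in libraries 1 to 4. The mean was 8.95% ± 0.806 (SD, n = 4). The Wilson intervals of all 4 libraries overlapped, from 6.54% at the lowest bound to 11.6% at the highest. In CPM the sum stayed within 25.0 to 29.6.

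The most 5' of these regions was the best read, with 49, 30, 57 and 46 reads (9.40, 13.9, 9.98 and 11.5 CPM). Its neighbour, whose end lay beyond the merging distance, had 17, 6, 18 and 10 reads. The region at 66309297 was the steadiest of all HMGA2 regions, at 7.53 to 8.05 CPM. The region at 66237300 is 10 bases wide and had 27, 11, 22 and 16 reads, or 5.18, 5.08, 3.85 and 4.02 CPM. Over the table, regions of at most 5 bases took 1.59% to 1.80% of reads in libraries 1 and 2 but 0.170% to 0.180% elsewhere, and no HMGA2 region is that narrow. Transcripts of HMGA2 that end early are known, but without gene models of the files' build these 4 regions were not assigned to an exon or intron. Priming of oligo(dT) on A-rich sequence within a transcript was not tested here. The nearest plus-strand regions outside the gene lay 363994 bases before and 381324 bases after the HMGA2 regions, and the window held 0 minus-strand regions, although RefSeq (GRCh38.p14) lists 2 antisense genes of HMGA2.

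HMGA1, which codes for the other member of the family, ended almost wholly at a broad region of 80 bases, from 34213956 to 34214035 on the plus strand of chromosome 6. It had 559, 212, 269 and 169 reads in libraries 1 to 4, or 107, 98.0, 47.1 and 42.4 CPM. Libraries 1 and 2 lay above libraries 3 and 4 without overlap, as at 34.7% of the regions with at least 100 reads. The region held 96.0% ± 3.98 of HMGA1 reads (SD, n = 4). The only other region, 6 bases wide from 34210534 to 34210539, ended 3496 bases earlier and had 5, 1, 17 and 16 reads. Its level was 0.959 and 0.462 CPM in libraries 1 and 2 and 2.98 and 4.02 CPM in libraries 3 and 4, opposite to the main region. That order was seen at 32.8% of regions with at least 100 reads, a minimum that this region, with 39 reads, does not reach. A count of 1 to 5 reads is close to the limit that a count of 0 allows, 0.576 and 1.39 CPM in libraries 1 and 2, so no fold is given.

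The upstream HMGA1 region took 0.887% (95% Wilson interval 0.379% to 2.06%) and 0.469% (0.0829% to 2.61%) of HMGA1 reads in libraries 1 and 2. In libraries 3 and 4 it took 5.94% (3.74% to 9.31%) and 8.65% (5.39% to 13.6%). These intervals lay above those of libraries 1 and 2, as at 4.74% of 18811 regions by share of their locus. Over all libraries the upstream region was under the 5% minimum, with 3.13% of HMGA1 reads. HMGA1 thus entered the test between libraries only without a share minimum, a choice made after seeing the data. On thinned counts none of the 6 pairs then passed (adjusted p 0.083 to 1 by Fisher's exact test), with 9.25%, 8.15%, 14.4% and 13.1% of 5989 loci called for 1 against 3, 1 against 4, 2 against 3 and 2 against 4, and 0.184% and 0.0501% within the resembling pairs. With all reads, the main region's share was higher in libraries 1 and 2 than in libraries 3 and 4 in all 4 pairs (adjusted p 1.4e-05 to 0.00704 by the exact test). In either direction 23.1%, 17.9%, 21.0% and 17.5% of loci were called with all reads, in the same order of pairs. The draw of thinned counts left 3 of 105 reads at the upstream region in library 3, against 17 of 286 before thinning.

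**Figure D2:**
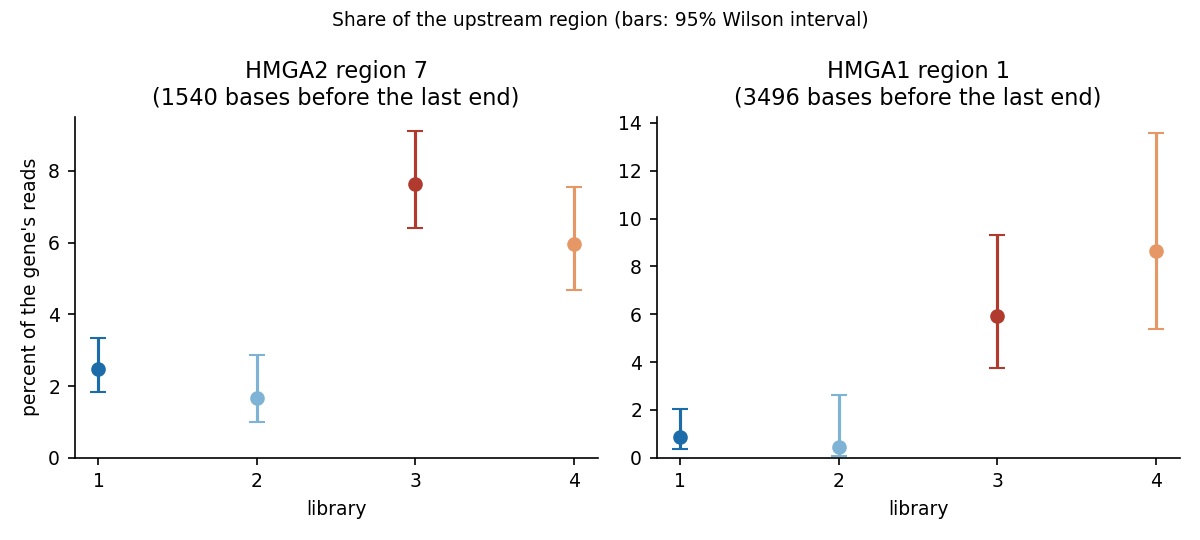
Percent of the gene's reads at HMGA2 region 7 (left) and at HMGA1 region 1 (right) in each library, with bars for the 95% Wilson interval. In both genes the upstream region's share is higher in libraries 3 and 4, and its intervals there do not overlap those of libraries 1 and 2. By share of the locus, intervals stood apart in this way and direction at 4.74% of 18811 regions.

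Summed over its regions, HMGA2 gave 310, 357, 259 and 266 CPM in libraries 1 to 4, or 298 ± 45.5 (SD, n = 4). HMGA1 gave 108, 98.4, 50.1 and 46.4 CPM, or 75.8 ± 32.1 (SD, n = 4). HMGA2 was above HMGA1 in each of the 4 libraries, by 2.87-, 3.63-, 5.17- and 5.72-fold. This ratio was smaller in libraries 1 and 2 than in the others, and HMGA1 spread more than HMGA2. Between the highest and the lowest library, HMGA1 differed 2.33-fold and HMGA2 1.38-fold. HMGA1 has 8 pseudogenes in RefSeq, and how reads that match several places were counted is not stated. HMGA1 levels are therefore uncertain to that extent.

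Among the 17963 loci of the table, the locus at the 3' end of HMGA2, at 272 CPM, ranked at 664, above 96.3% of loci. HMGA1 ranked at 2970, above 83.5%. Both genes are thus read well above most loci, and HMGA2 near the top of the range. In bulk cells, fewer cells that express a gene and less RNA per cell cannot be told apart.

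**Figure D3:**
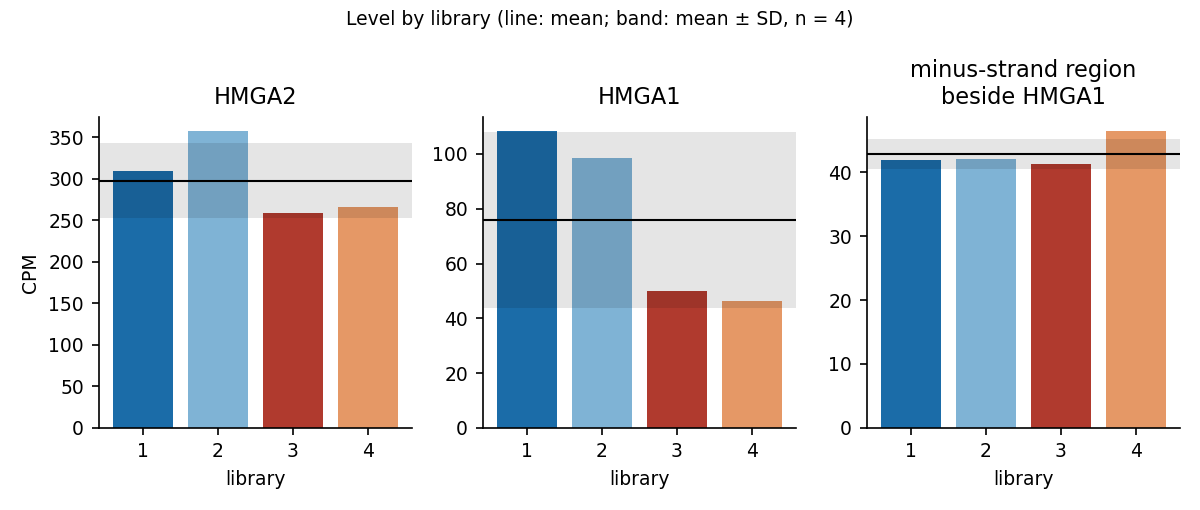
Level in CPM of HMGA2, HMGA1 and the minus-strand region beside HMGA1 in each library (bars from 0, the scale differs between panels), with a line at the mean and a band of 1 SD (n = 4). HMGA1 is at 108 and 98.4 CPM in libraries 1 and 2 and at 50.1 and 46.4 CPM in libraries 3 and 4, while the minus-strand region stays at 41.3 to 46.4 CPM.

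The level of HMGA1 was compared between single libraries, with an exact 95% interval of the ratio for counting error. Library 1 was 2.16-fold (1.87 to 2.50) above library 3 and 2.33-fold (1.97 to 2.77) above library 4. Library 2 was 1.97-fold (1.64 to 2.36) above library 3 and 2.12-fold (1.73 to 2.60) above library 4. Within the resembling pairs, the ratio was 1.10 (0.938 to 1.29) for library 1 over library 2 and 1.08 (0.893 to 1.30) for library 3 over library 4. HMGA1 was thus over 1.5-fold higher in all 4 comparisons across the pairs and in neither within them. Of the 11100 loci with at least 100 reads, 12.8%, 12.6%, 15.8% and 15.6% were over 1.5-fold higher in library 1 against 3, 1 against 4, 2 against 3 and 2 against 4. Within the resembling pairs it was 5.05% for 1 against 2 and 2.23% for 3 against 4. Libraries 1 and 2 were both over 1.5 times both others at 9.81% of loci, HMGA1 among them, and the opposite was seen at 5.29%.

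HMGA2 moved less. Libraries 1 and 2 were above libraries 3 and 4 by 1.17- to 1.38-fold, under the 1.5-fold used for HMGA1, and library 1 was below library 2 (0.868, interval 0.796 to 0.947). No overlap in this direction was seen at 36.4% of loci and in the opposite direction at 33.5%, so the order of HMGA2 levels is common in these data.

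A minus-strand region next to HMGA1 shows the libraries at a neighbouring end. It lay from 34214142 to 34214189, and its 3' end was 107 bases beyond that of HMGA1, so both transcripts converge. RefSeq (GRCh38.p14) places SMIM29 next after HMGA1, on the minus strand, but the files do not pair the region with a gene. Its level was 42.0, 42.1, 41.3 and 46.4 CPM in libraries 1 to 4, or 43.0 ± 2.34 (SD, n = 4). Library 1 over library 3 was 1.02 (exact interval 0.843 to 1.23), where HMGA1 was at 2.16. The higher HMGA1 level in libraries 1 and 2 was thus not seen at this end on the other strand.

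**Figure D4:**
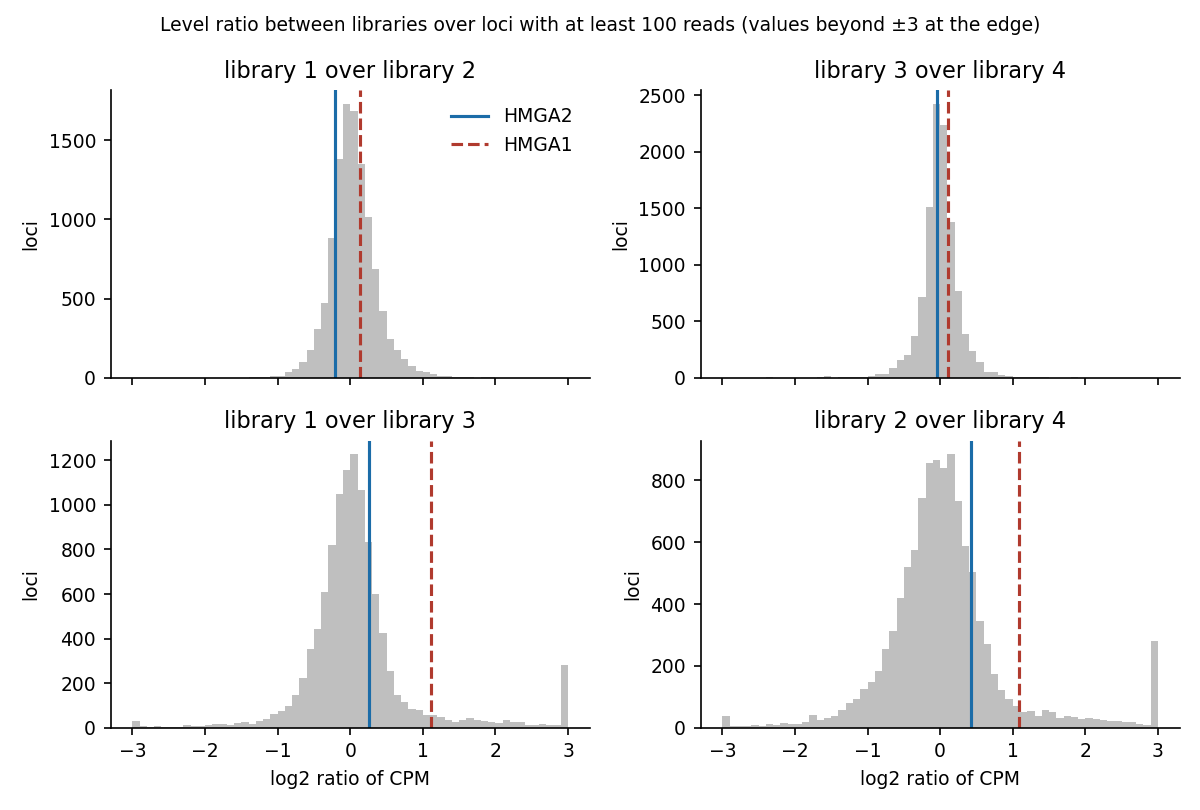
Distribution over loci with at least 100 reads of the log2 ratio of CPM between libraries, for 4 pairs, with lines at HMGA2 (solid) and HMGA1 (dashed); values beyond 3 are drawn at the edge, and loci without reads in a library are left out. HMGA1 lies near 0 within the resembling pairs (0.14 and 0.11) and at 1.11 and 1.08 across them, in the right tail of wide distributions.

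The loci most like each gene over the libraries were sought among 4345 well-read loci (each library with 100 reads or more), by the largest absolute difference of log2 CPM centred on the mean of each locus. For HMGA2 the nearest was a single region on the minus strand of chromosome 16 (3072614 to 3072661), at 107, 125, 91.2 and 92.4 CPM, with a largest difference of 0.013. Next were loci on the minus strands of chromosome 4 (76567948 to 76570862) and chromosome 7 (135611493 to 135614555), each at 0.017. For HMGA1 the nearest was on the minus strand of chromosome 10 (120440476 to 120444124), at 70.0, 65.6, 34.1 and 31.6 CPM, with a largest difference of 0.048. A locus on chromosome 17 (minus, 26880396 to 26883956) followed at 0.12, and a region on chromosome 1 (plus, 109766642 to 109766679) at 0.14. With 4 libraries such likeness is easily met, more so for the small spread of HMGA2 than for HMGA1.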

How the data were processed

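The deposited table holds unnormalized read counts for each poly(A) region in 4 libraries, with positions, per the file headers. Bowtie2 2.2.5 and hg19 are named by the submitters' processing notes. The making and filtering of regions, and whether positions count from 0 or 1, are not given in the sources used here. The lowest maximum of a region over libraries was 11 reads.

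Members and lists were chosen with earlier results of these data known. The related genes and cell type markers listed at the start could not be located without an hg19 annotation. The rule for named loci was the 3 nearest to each gene in log2 level over libraries. CPM used library totals (5211279, 2163977, 5713530 and 3984278 reads). A count of 0 allows up to 3 counts. Shares have 95% Wilson intervals. Fisher's test was checked on simulated data, where few unchanged loci were called but most changed loci were missed, above all those with few reads or extreme shares. The simulated counts varied by Poisson error alone around a single pooled profile. They held no further spread between libraries, so the few false calls do not carry over to these libraries. The recovery required to pass was changed after the simulated results of several random draws were seen. Fisher's test used scipy 1.17.1. Size factors from edgeR 4.0.16 and DESeq2 1.42.0, all reads in place of thinned counts, other joining and merging distances, other minimums and leaving out each library were tried. The distal share of HMGA2 used the locus at its 3' end, since over the whole gene 1 region passed 5%.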

Additional observations from a re-analysis of the deposited data

Results flagged for a closer look

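A single library was far from the rest in 2 of 43 values examined. Chance gives about 1 in 20 for independent values, but many of these come from the same counts. The last HMGA2 region, from 66360061 to 66360089, was at 9.79 CPM in library 4, against 14.0, 14.8 and 14.2 CPM in libraries 1 to 3. The minus-strand region beside HMGA1 was at 46.4 CPM in library 4, against 42.0, 42.1 and 41.3 CPM in the others.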

How the results depend on the processing

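No paired analysis was possible because the series has a single group. Of 172 recomputed values, 146 stayed on their side of the threshold or moved by less than the spread between libraries (counts within 1.5 times, ranks by less than 1 percentage point). Levels of both genes moved by less than 1 SD under TMM, size factors from median ratios, totals without narrow regions and leaving out each library. Their ratio did so on leaving out each library. Scaling cancels in the ratio and was not run. Leaving out 1 of 4 libraries cannot move a mean over libraries by 1 SD, so that outcome was fixed in advance. TMM and median-ratio factors keep the typical depth of the libraries, so they could move these means little. These values are among the 146. HMGA2 ranged from 278 to 311 CPM without a library, HMGA1 from 65.0 to 85.6 CPM and HMGA1 over HMGA2 from 0.215 to 0.273. Libraries 1 and 2 stayed at least 1.84-fold above libraries 3 and 4 for HMGA1 and 1.07-fold for HMGA2 under these scalings.

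Counting regions with 5% of the gene alone gave HMGA2 238 CPM. The strongest HMGA2 region's share became 84.0% with ends merged and 87.4% of the 3' locus (78.5% to 81.2% without a library). The HMGA2 distal share was 5.03% to 5.60% without library 1, 2 or 4 and 95.0% with ends merged. Without library 3 only 1 region passed the minimum, so no share was computed. A 10% minimum left 1 HMGA2 region in the locus at the 3' end of the gene. The HMGA1 distal share was 94.8% to 97.6% without a library. HMGA2 ranked above 94.0% of loci with 100 reads. HMGA1 ranked above 73.2% of those, and above 86.9%, 85.2% and 82.0% of loci joined within 1, 2 and 10 kb.

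With ends merged, the distal HMGA2 region includes the strongest, and its share was higher in libraries 1 and 2, where no pair passed as deposited: adjusted p = 0.00087, 3.2e-07 and 0.00034 for libraries 1 and 3, 2 and 3, and 2 and 4 by Fisher's exact test. With all reads as well, it was 2.7e-10, 0.000102, 5.7e-09 and 4.0e-05 for 1 and 3, 1 and 4, 2 and 3, and 2 and 4. For HMGA1 without a share minimum, all reads gave adjusted p = 0.00029, 1.4e-05, 0.00704 and 0.00067 in that order, none of which passed on thinned counts. Thinning removes reads at random. With all reads, calls over all loci rose from 500 to 1185 (1 and 3), 433 to 915 (1 and 4), 11 to 35 (1 and 2) and 4 to 12 (3 and 4). Loci with 500 reads gave 17 calls for 1 and 2, and merged ends 2 for 3 and 4. No share of loci called with all reads is given for merged ends other than 1 and 4, or for regions joined within 1 kb. Joined in the latter way, the 3 tandem HMGA2 regions passed with all reads too (adjusted p 5.8e-05 to 0.038, Fisher's exact test). The thresholds of fold, this test, all-read tests for merged ends and tests without a share minimum were chosen after seeing the data. Depth limits most the upstream HMGA1 region, with 39 reads in all.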
